A study of Mus musculus with 9 samples.

Results

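The genes described here are 46 genes of the lysosome, picked by their symbol from a list of lysosomal enzymes and subunits of the lysosomal proton pump, out of 23238 gene symbols listed in each library. By role they are 11 proteases, 7 glycosidases, 6 lipid enzymes and lipid carriers, 6 membrane proteins, progranulin, 14 subunits of the proton pump and the transcription factor Tfeb. Each of the 46 symbols was listed in each library and none was listed more than once. Of these, 45 passed the filter on low counts and were tested. The remaining gene, Atp6v0d2, a pump subunit best known from osteoclasts and tissue macrophages, had 0 counts in all 9 libraries.

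The libraries were QuantSeq libraries, which sequence the 3′ end of polyadenylated transcripts, of sorted monocytes taken on day 1 from wild-type (WT) female C57BL/6N mice aged 12 weeks. The 3 groups were blood monocytes of untreated mice (Nor_Bl_mono, labelled Normal), blood monocytes of mice with an NMO-like lesion (NMO_Bl_mono) and brain monocytes of mice with that lesion (NMO_Br_mono), with 3 libraries a group and a pool of 5 mice a library. The lesion was made by injecting IgG of patients with neuromyelitis optica (NMO-IgG) together with human complement into the striatum on 1 side, and no group received control IgG or vehicle, so the antibody and the injection cannot be told apart. Cells were sorted as CD45+ CD11b+ P2ry12- Ly6C+ Ly6G-, after enzymatic digestion and a Percoll step for brain and after a density gradient for blood, so tissue and isolation cannot be told apart either.

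The lysosome is the acidic compartment in which macrophages and monocytes break down what they take up. A proton pump, the V-ATPase, acidifies it with a membrane sector (V0) that conducts protons and a cytosolic sector (V1) that splits ATP, and the acid pH activates proteases of the cathepsin family, glycosidases and lipid-cleaving enzymes. Tfeb is a transcription factor that raises many of these genes together through a palindromic promoter element called the CLEAR motif. Monocytes that enter tissue and mature toward macrophages are known for building up lysosomal proteases.

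The promoters are shown for the genes that hold the letters of the CLEAR motif there. Of these, the proteases Ctsd and Ctsa were higher in brain at the unadjusted threshold in a comparison below, and the pump subunit Atp6v0e was lower. The calcium channel Mcoln1 was higher against both blood groups only, with limits given below. The pump subunits Atp6v0d1 and Atp6v1a did not pass that threshold. Genes without the core, among them Ctss, Psap and Npc2, passed as well, and a link between the core and the changes was not tested. The glycosidase Gla did not pass the threshold but had brain values above all blood values. RefSeq promoters of GRCm38.p6 (250 bases before to 50 bases after each start) were found for 36 of the 46 genes. The entries missing from the table were those of Ctsb, Ctsh, Ctse, Npc1, Asah1, Atp6v0d2, Atp6v1b2, Atp6v1c1, Atp6v1g1 and Atp6v1h. The core of the CLEAR motif, TCACGTGA, was searched on both strands (it reads the same on each) and was held by 7 of the 36 (19.4%), against 1.12% of all 27025 genes in the table and 2.42% of the 7724 tested genes with an entry. The shorter E-box CACGTG, which lies inside that core, was held by 13 of the 36 (36.1%), against 8.09% of all genes and 12.1% of the tested ones. The core was held by 3 of 9 pump subunits (33.3%) and by 4 of 27 other genes (14.8%). The stretches of 72 bases that hold it, 5′ to 3′ on the gene's own strand with the core in capitals, were at chr7:142387887-142387958 (minus strand) for the protease Ctsd, chr2:164833728-164833799 (plus) for the protease Ctsa, chrX:134601184-134601255 (minus) for the glycosidase Gla, chr8:3500441-3500512 (plus) for the calcium channel Mcoln1, chr8:105566029-105566100 (minus) and chr17:26676366-26676437 (plus) for the V0 subunits Atp6v0d1 and Atp6v0e, and chr16:44139352-44139423 (minus) for the V1 subunit Atp6v1a.
Ctsd: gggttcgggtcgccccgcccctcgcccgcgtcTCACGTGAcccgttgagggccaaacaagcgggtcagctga
Ctsa: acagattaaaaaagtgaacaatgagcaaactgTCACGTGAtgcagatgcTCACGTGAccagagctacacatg
Gla: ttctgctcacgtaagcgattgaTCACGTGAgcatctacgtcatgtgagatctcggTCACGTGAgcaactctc
Mcoln1: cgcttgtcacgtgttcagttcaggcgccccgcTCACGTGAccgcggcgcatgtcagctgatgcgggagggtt
Atp6v0d1: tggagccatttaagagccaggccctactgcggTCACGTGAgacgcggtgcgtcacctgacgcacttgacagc
Atp6v0e: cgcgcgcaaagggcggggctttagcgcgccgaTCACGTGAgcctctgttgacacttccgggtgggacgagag
Atp6v1a: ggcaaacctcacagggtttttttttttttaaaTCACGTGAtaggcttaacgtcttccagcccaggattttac
With the start base counted as 0, the first base of the core lay at -99 in Ctsd, -46 in Mcoln1, -132 in Atp6v1a, -4 in Atp6v0d1 and 2 in Atp6v0e. Ctsa and Gla held it in 2 copies each, the first of them at -13 in Ctsa and -228 in Gla. Ctsa had 2 promoter entries, and the core lay only in the one shown. A match of letters is a description of the sequence, and binding was not measured in these libraries. Many of these genes are known for this motif, so its larger share among them was largely given in advance.

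Library totals ranged from 7584649 to 10419647 counts, of which the ribosomal RNA entry Rn45s took 28.4% to 43.6%. The 46 genes took 1.28% to 2.09% of the other counts in the 6 blood libraries and 2.16% to 2.59% in the 3 brain libraries. Coverage of single genes was uneven. In NMO_Bl_mono replicate 3, which detected 4567 genes against 6473 to 11556 in the other libraries, 15 of the 46 genes were at or under 3 counts, and in NMO_Br_mono replicate 2 there were 8, against 1 to 3 in each other library. Values are CPM, counts set to a common library size after TMM scaling. They count 3′ reads and are compared between libraries, not between genes. The plot of all 45 detected genes by library shows these gaps as dark cells.

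Most lysosomal genes called higher in brain than in blood monocytes of NMO mice at the unadjusted threshold were proteases. Of the proton pump subunits 0 were called higher, and their summed level overlapped between the 2 groups. The aspartic protease Ctsd, the cysteine proteases Ctsb, Ctss and Lgmn, the serine carboxypeptidase Ctsa and the lipid carriers Psap and Npc2 were higher at an unadjusted p under 0.05 with a fold of at least 1.2, which is the threshold the study used. The V0 subunit Atp6v0e alone was lower. The 7 higher genes were 7 of 45 tested, where 1.48% of all 10107 tested genes were higher at that threshold. The 1 lower gene stood against a background of 3.84%. With adjustment over all tested genes 0 of the 45 passed in edgeR, where 8 had an unadjusted p under 0.05 and the background was 0.247%. DESeq2 passed 1 of the 45 and 336 of all tested genes, a larger share of all genes than of the 45, and limma-voom with sample quality weights passed 3 and 51. Fitted log2 fold changes were above 0 for 39 of the 45, with a median of 0.61 against 0.05 over all tested genes. In 13 of the 45 all NMO_Br_mono values exceeded all NMO_Bl_mono values, where 6.3% of all tested genes did so. By role the 13 were 4 cysteine proteases, 2 aspartic and serine proteases, 2 lipid enzymes or carriers, 2 membrane proteins, 1 glycosidase and 1 subunit of each pump sector. In 1 of the 45 (Atp6v0e) all were below, against a background of 6.05%. In bulk libraries such as these, fewer cells of a type and less RNA per cell cannot be told apart.

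Ctsd, the main aspartic protease of the lysosome, stands at chr7:142375911-142388038 in GRCm38. It had 379.6, 318 and 291 CPM in the Nor_Bl_mono libraries, 363, 364 and 181 in NMO_Bl_mono and 1336, 1108 and 1056 in NMO_Br_mono. The 3 brain libraries lay above all 6 blood libraries, and within blood NMO_Bl_mono replicate 3 was the lowest. Means were 329 ± 45.4, 303 ± 105 and 1167 ± 149 CPM (SD, n = 3 libraries each). Against NMO_Bl_mono the fitted change was 1.95 on the log2 scale (SE 0.38, a fold of 3.85, 95% interval 1.14 to 2.75), with an adjusted p of 0.053 in edgeR's quasi-likelihood test. That adjusted p was under 0.05 in 9 of 20 alternatives and reached 0.25 in the others. Against both blood groups together the change was 1.89 (SE 0.30), with an adjusted p of 0.014 in edgeR. It was the 1 lysosomal gene called there, and its adjusted p stayed under 0.05 in each of 19 alternatives, with 0.04996 as the highest.

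Among the cysteine proteases, Ctsb, an abundant cathepsin that both cuts inside proteins and trims their ends, had 319.8, 532 and 692 CPM in the Nor_Bl_mono libraries, 279.8, 485 and 23.3 in NMO_Bl_mono and 1068, 928 and 1571 in NMO_Br_mono. The brain libraries lay above all blood libraries, and NMO_Bl_mono replicate 3 was far below the other blood libraries. The log2 change against NMO_Bl_mono was 2.18 (SE 0.73, adjusted p = 0.66 in edgeR), and it was 1.65 without that library.

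Ctss, a cathepsin that stays active at neutral pH and trims the invariant chain of MHC class II, had 1089.5, 1771 and 2129 CPM in the Nor_Bl_mono libraries, 1115, 1714 and 929 in NMO_Bl_mono and 2818, 2594 and 2355 in NMO_Br_mono. Each brain library exceeded each blood library, and the closest blood library was Nor_Bl_mono replicate 3. The log2 change against NMO_Bl_mono was 1.05 (SE 0.31, adjusted p = 0.43 in edgeR).

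Lgmn, the asparaginyl endopeptidase legumain, which also processes other cathepsins, had 23.7, 42.1 and 44.3 CPM in the Nor_Bl_mono libraries, 16.9, 60.6 and 0 in NMO_Bl_mono and 192, 236 and 478 in NMO_Br_mono. Legumain was low throughout blood, with a highest blood value of 60.6, and the lowest brain value was 192. Its log2 change of 3.54 (SE 1.41, adjusted p = 0.80 in edgeR) had the widest error of the called proteases, and NMO_Bl_mono replicate 3 held 0 counts. Leaving that library out gave 2.97, and the call at the unadjusted threshold was lost without NMO_Bl_mono replicate 1 or without NMO_Br_mono replicate 3.

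Ctsl, a further endopeptidase of this class, had 18.7, 9.83 and 57.5 CPM in the Nor_Bl_mono libraries, 41.9, 58.9 and 28.7 in NMO_Bl_mono and 80.3, 83.3 and 286 in NMO_Br_mono. It was higher in each brain library than in each blood library, but NMO_Br_mono replicate 3 was more than 3 times the others. The log2 change was 1.80 against NMO_Bl_mono (SE 1.00, adjusted p = 0.84 in edgeR) and 2.09 against both blood groups (SE 0.80, adjusted p = 0.62), where it passed the unadjusted threshold. Without that library the change against both blood groups was 1.23 and no longer passed the unadjusted threshold. The other cysteine proteases did not pass in any comparison. Ctsc, which activates the serine proteases of granules, had 629, 456 and 308 CPM in brain and 235, 348 and 0.0909 in NMO_Bl_mono. Ctsh, an aminopeptidase, had 531, 305 and 381 in brain and 341, 483 and 171 in NMO_Bl_mono. Ctsz, a carboxypeptidase, had 264, 209 and 236 in brain and 144, 162 and 246 in NMO_Bl_mono. Ctsh and Ctsz overlapped between the groups, and Ctsc lay above all of NMO_Bl_mono in 2 of 3 brain libraries. In Nor_Bl_mono Ctsc had 95.7, 207 and 189, Ctsh 333, 319 and 277 and Ctsz 149, 94.2 and 111 CPM, and Ctsc and Ctsz lay above normal blood in each brain library.

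Ctsa, a serine carboxypeptidase that also protects the sialidase Neu1 and the galactosidase Glb1 in a complex, had 104, 146 and 244 CPM in the Nor_Bl_mono libraries, 115, 198 and 19.1 in NMO_Bl_mono and 356, 372 and 364 in NMO_Br_mono. The brain libraries were tight (SD 7.69) and lay above each blood library, while the blood libraries ranged from 19.1 to 244. The log2 change against NMO_Bl_mono was 1.72 (SE 0.71, adjusted p = 0.80 in edgeR), and 1.23 without NMO_Bl_mono replicate 3. It fell short of the unadjusted threshold without NMO_Bl_mono replicate 1. Its partners did not pass the test. Neu1 had 110.3, 51.8 and 111 CPM in brain against 53.1, 76.9 and 61.7 in NMO_Bl_mono, and Glb1 had 0 counts in 1 brain library and 3 in another. The serine protease Tpp1, a tripeptidyl peptidase, had 95.0, 52.2 and 89.8 against 42.0, 107 and 0, and the aspartic protease Ctse, typical of other cell types, was near 0 in most libraries, at 77.3 CPM in NMO_Bl_mono replicate 3 and 37.8 in NMO_Br_mono replicate 3.

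**Figure D1:**
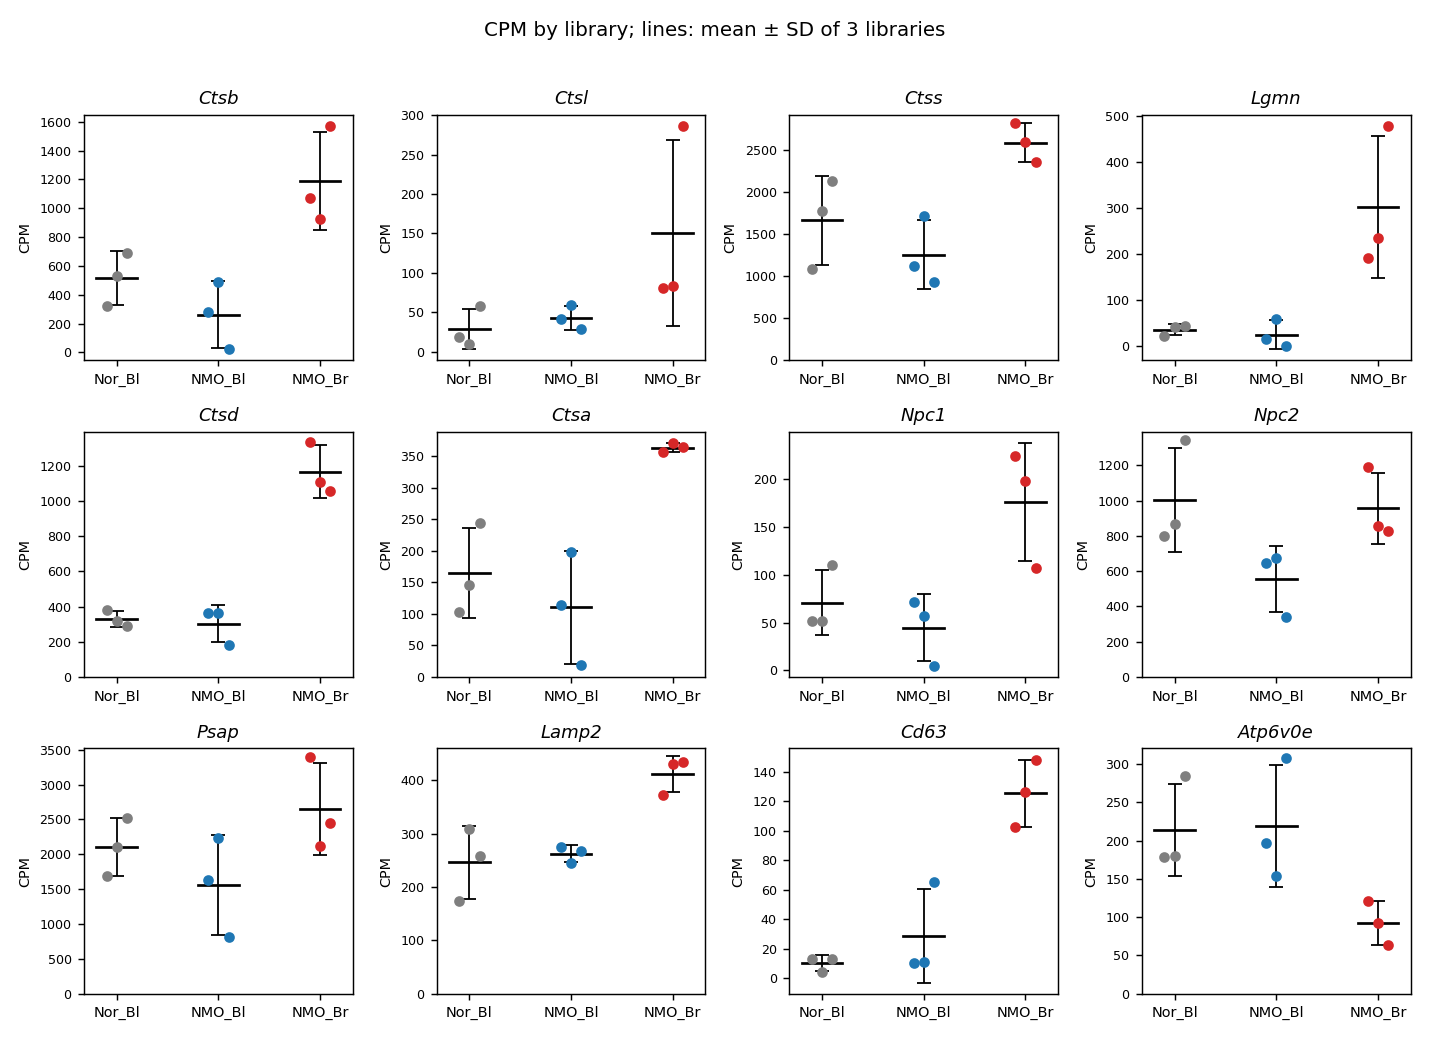
CPM of 12 lysosomal genes in each library, 1 panel a gene with its own axis, with points for libraries, horizontal lines for group means and bars for the SD of 3 libraries. The NMO_Br_mono points of Ctsb, Ctsl, Ctss, Lgmn, Ctsd, Ctsa, Lamp2 and Cd63 lie above all 6 blood points, those of Npc1, Npc2 and Psap overlap Nor_Bl_mono, and those of Atp6v0e lie below all 6.

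The glycosidases, which strip sugars from glycoproteins and glycolipids, had none of 7 genes past the unadjusted threshold of edgeR in any comparison of brain with blood. Gla, the alpha-galactosidase that cleaves globotriaosylceramide, came nearest, with 45.5, 2.33 and 4.09 CPM in the Nor_Bl_mono libraries, 48.3, 23.6 and 1.09 in NMO_Bl_mono and 64.1, 134 and 101 in NMO_Br_mono. All 3 brain libraries lay above all 6 blood libraries, which spread from 1.09 to 48.3. The log2 change against both blood groups was 2.28 (SE 1.22, adjusted p = 0.65 in edgeR) and against NMO_Bl_mono 2.03 (SE 1.52, adjusted p = 1.00). Leaving out a library moved the latter from 1.48 (without NMO_Bl_mono replicate 3) to 3.01 (without NMO_Bl_mono replicate 1), and the former up to 3.49 (without Nor_Bl_mono replicate 1). Man2b1, the lysosomal alpha-mannosidase, had 259, 162 and 145 CPM in brain and 144, 213 and 155 in NMO_Bl_mono, with full overlap. Hexa, Gaa, Glb1 and Gusb each had at least 1 library at or under 3 counts and SEs of 1.42 to 3.09 on the log2 scale, so that a difference of several fold was not detectable over this spread between libraries. The summed CPM of the 7 genes was 335, 359 and 648 in the Nor_Bl_mono libraries, 375, 516 and 329 in NMO_Bl_mono and 731, 533 and 499 in NMO_Br_mono, with overlap.

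Of the lipid enzymes and carriers, Psap, the precursor of the saposins that present lipids to their hydrolases, had 1688, 2109.8 and 2524 CPM in the Nor_Bl_mono libraries, 1625, 2235 and 811 in NMO_Bl_mono and 3391, 2122 and 2452 in NMO_Br_mono. Brain and blood overlapped, with NMO_Bl_mono replicate 2 and Nor_Bl_mono replicate 3 above the lowest brain library. The log2 change against NMO_Bl_mono was 0.77 (SE 0.34, adjusted p = 0.80 in edgeR), it was 0.47 without NMO_Bl_mono replicate 3, and the call was lost without that library or without NMO_Br_mono replicate 1.

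Npc2, the soluble carrier that hands cholesterol to Npc1, had 799, 866 and 1342 CPM in the Nor_Bl_mono libraries, 649, 677 and 341 in NMO_Bl_mono and 1188, 855 and 829 in NMO_Br_mono. NMO_Bl_mono was the low group, and brain and normal blood overlapped. Npc2 was higher in NMO_Br_mono than in NMO_Bl_mono by 0.79 (SE 0.36, adjusted p = 0.80 in edgeR), a call lost in 8 of 20 alternatives, and its change against Nor_Bl_mono was -0.07 (SE 0.36, 95% interval -0.84 to 0.71).

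Npc1, the membrane protein that receives that cholesterol, had 51.2, 51.2 and 110.0 CPM in the Nor_Bl_mono libraries, 71.4, 57.4 and 4.82 in NMO_Bl_mono and 224, 198 and 107 in NMO_Br_mono. All brain values lay above NMO_Bl_mono, and NMO_Br_mono replicate 3 was just under the highest Nor_Bl_mono library. The log2 change was 1.99 against NMO_Bl_mono (SE 0.94, adjusted p = 0.80 in edgeR) and 1.65 against both blood groups (SE 0.76, adjusted p = 0.62), where the call was lost in 7 of 19 alternatives. The remaining lipid enzymes did not pass. The thioesterase Ppt1 had 315, 162 and 222 CPM in brain and 253, 242 and 59.4 in NMO_Bl_mono. The acid lipase Lipa had 27.5, 26.3 and 35.9 against 40.1, 28.4 and 0, and the acid ceramidase Asah1 had 44.9, 135 and 21.6 against 62.5, 69.2 and 0. In all 3 NMO_Bl_mono replicate 3 was the lowest library.

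The membrane proteins differed among themselves. Lamp2, which lines the lysosome and serves as the receptor of chaperone-mediated autophagy in 1 isoform, had 173, 308 and 257 CPM in the Nor_Bl_mono libraries, 275, 245 and 268 in NMO_Bl_mono and 373, 430.2 and 434 in NMO_Br_mono. Brain did not overlap with blood, and neither difference passed a threshold, with a log2 change of 0.65 against NMO_Bl_mono (SE 0.42, adjusted p = 1.00 in edgeR) and 0.70 against both blood groups (SE 0.35, adjusted p = 0.62). Its close relative Lamp1, the other major lining protein, had 404, 535 and 641 CPM in the Nor_Bl_mono libraries, 516, 556 and 395 in NMO_Bl_mono and 763, 285 and 562 in NMO_Br_mono. These overlapped fully, with a log2 change of 0.13 and a 95% interval of -0.75 to 1.02.

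Cd63, a tetraspanin of late endosomes and lysosomes, had 13.4, 4.12 and 13.4 CPM in the Nor_Bl_mono libraries, 10.2, 11 and 65.6 in NMO_Bl_mono and 103, 126 and 148 in NMO_Br_mono. It was nearly silent in 5 of 6 blood libraries, and NMO_Bl_mono replicate 3 was the exception. The log2 change against both blood groups was 2.86 (SE 0.94, adjusted p = 0.44 in edgeR), against NMO_Bl_mono it was 2.12 (SE 1.17, adjusted p = 0.83), and without NMO_Bl_mono replicate 3 the latter was 3.58. A processed copy, Cd63-ps, is annotated, and reads with several alignments were counted, so reads of the 2 cannot be told apart with certainty.

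Laptm5, a lysosomal protein of blood cells that sorts receptors to degradation, had 1039, 1157 and 1378 CPM in the Nor_Bl_mono libraries, 1169, 1209 and 891 in NMO_Bl_mono and 963, 1240.1 and 712 in NMO_Br_mono, with no separation of the groups (log2 change -0.17, SE 0.30, 95% interval -0.81 to 0.48). Scarb2, the receptor that carries the enzyme beta-glucocerebrosidase to the lysosome, had 78.5, 16.3 and 36.4 CPM in brain and 42.6, 55.0 and 109.8 in NMO_Bl_mono, which also overlapped. Mcoln1, the lysosomal calcium channel TRPML1, had 0 counts in all 3 Nor_Bl_mono libraries and in 2 of 3 NMO_Bl_mono libraries, 17 counts in NMO_Bl_mono replicate 2, and 119, 0 and 60 counts in brain. It passed the filter mainly through its brain counts, so its higher brain level was in part set by the filter, and its call at the unadjusted threshold of edgeR against both blood groups was lost in 14 of 19 alternatives. Grn, which encodes progranulin, a secreted and lysosomal protein cut into granulins, had 391, 244 and 192 CPM in the Nor_Bl_mono libraries, 319, 279 and 205 in NMO_Bl_mono and 662, 337 and 213 in NMO_Br_mono, and NMO_Br_mono replicate 1 alone lay above the blood range.

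Of the proton pump subunits 4 of 5 tested in V0 and 6 of 8 in V1 had log2 changes above 0 against NMO_Bl_mono, with medians of 0.05 and 0.30 against 0.05 over all tested genes, and 1 subunit passed the unadjusted threshold. Atp6v0e, a small membrane subunit of V0, had 179, 180.1 and 284 CPM in the Nor_Bl_mono libraries, 197, 153 and 308 in NMO_Bl_mono and 121, 92.4 and 64.0 in NMO_Br_mono. All 3 brain libraries lay below all 6 blood libraries. The log2 change was -1.25 against NMO_Bl_mono (SE 0.56, adjusted p = 0.80 in edgeR) and -1.23 against both blood groups (SE 0.51, adjusted p = 0.62). The first call was lost in 14 of 20 alternatives, among them the fits without any single library of Nor_Bl_mono or NMO_Bl_mono and without NMO_Br_mono replicate 2 or 3, and the direction was kept in all 20, from -1.50 to -0.91.

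Atp6v0c, the proteolipid that forms the rotating proton ring, had 176, 106 and 188 CPM in the Nor_Bl_mono libraries, 219, 178 and 45.8 in NMO_Bl_mono and 402, 226 and 223 in NMO_Br_mono. Brain lay just above the blood range, whose highest value was 219 against a lowest brain value of 223. The log2 change was 0.94 (SE 0.62, adjusted p = 1.00 in edgeR), and the pseudogenes Atp6v0c-ps1 and Atp6v0c-ps2 make its counts uncertain where reads align to more than 1 place. Atp6v1b2, the ATP-binding V1 subunit of macrophages and brain, had 91.1, 176 and 286 CPM in the Nor_Bl_mono libraries, 107, 78.7 and 0 in NMO_Bl_mono and 203, 179.6 and 122 in NMO_Br_mono. It separated NMO_Br_mono from NMO_Bl_mono but not from Nor_Bl_mono (log2 change 1.44, SE 1.32, adjusted p = 1.00 against NMO_Bl_mono in edgeR).

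Atp6v1a, the catalytic V1 subunit, had 265, 108 and 257 CPM in brain against 111, 80.9 and 257 in NMO_Bl_mono. Atp6v1e1, of the peripheral stalk, had 190.2, 181 and 75.9 against 124, 297 and 179.8, and Atp6v1f, of the central rotor, 278, 102 and 214 against 327, 181 and 224. All 3 overlapped between the groups, with log2 changes of 0.49, -0.43 and -0.30. Log2 changes of the other 7 tested subunits (Atp6v0a1, Atp6v0b, Atp6v0d1, Atp6v1c1, Atp6v1d, Atp6v1g1 and Atp6v1h) ran from 0.02 to 1.08 with SEs of 0.73 to 2.38, none past a threshold. Tfeb itself was unevenly covered, with 0 counts in 3 of 9 libraries and 51 to 340 in the others. It had 24.9, 5.39 and 0 CPM in the Nor_Bl_mono libraries, 20.2, 11.5 and 0 in NMO_Bl_mono and 38.5, 0 and 7.06 in NMO_Br_mono, with overlap of all groups.

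Summed by role, proteases and pump differed. The summed CPM of the 11 proteases was 2559, 3512 and 4157 in the Nor_Bl_mono libraries, 2694, 3985 and 1676 in NMO_Bl_mono and 7369, 6342 and 7163 in NMO_Br_mono, and the lowest brain library was above the highest blood library. That of the 14 pump subunits was 1312, 1272 and 1624 in the Nor_Bl_mono libraries, 1738, 1442 and 1183 in NMO_Bl_mono and 2212, 1229 and 1434 in NMO_Br_mono, and brain overlapped with both blood groups. The ratio of brain to NMO_Bl_mono means was 2.5 for the proteases, 1.71 for lipid enzymes and carriers, 1.45 for glycosidases, 1.12 for the pump and 1.08 for membrane proteins. Against Nor_Bl_mono it was 2.04, 1.17, 1.31, 1.16 and 1.04 in the same order, and the lipid sum of NMO_Bl_mono replicate 3 was 1215 CPM against 2701 and 3309 in the other libraries of its group. Counts of the same library need no scaling between libraries. Protease counts per pump count were 1.95, 2.76 and 2.56 in the Nor_Bl_mono libraries, 1.55, 2.76 and 1.42 in NMO_Bl_mono and 3.33, 5.16 and 4.99 in NMO_Br_mono. Ctsd counts per Laptm5 count were 0.365, 0.275 and 0.211, 0.31, 0.301 and 0.204, and 1.39, 0.893 and 1.48 in the same order. Neither ratio overlapped between brain and blood.

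**Figure D2:**
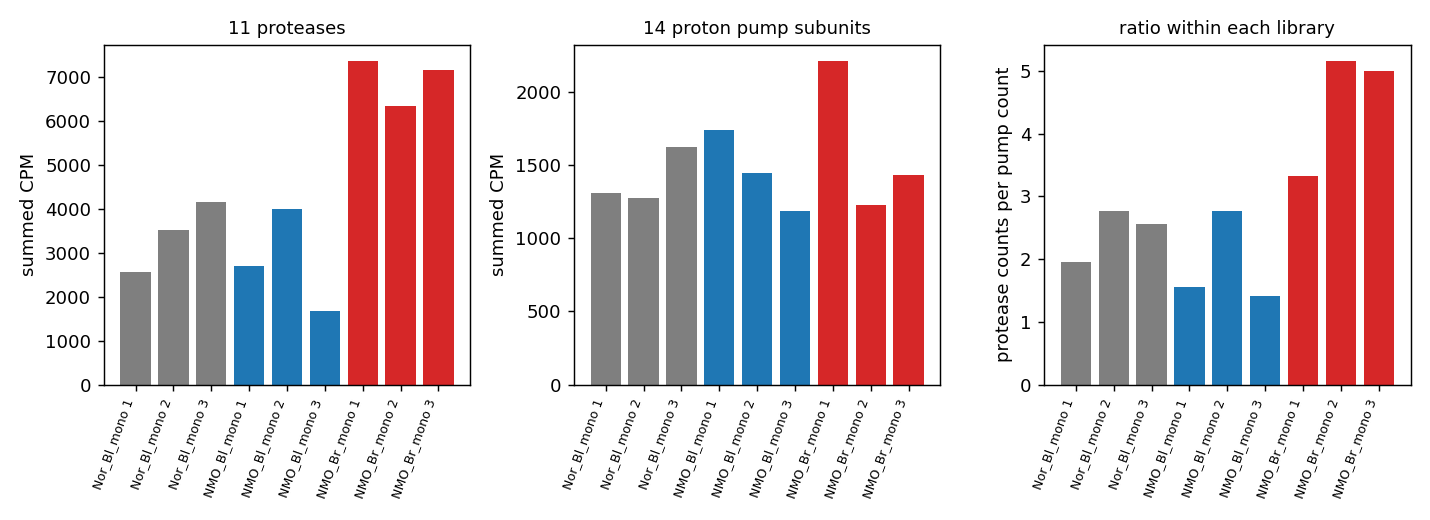
Summed CPM of the 11 proteases (left) and of the 14 proton pump subunits (middle) in each library, and protease counts per pump count within each library (right), with 1 bar a library and gray, blue and red for Nor_Bl_mono, NMO_Bl_mono and NMO_Br_mono. Protease sums run from 6342 to 7369 in brain and from 1676 to 4157 in blood, while the pump sums overlap.

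Within the protease sum the mix also shifted. Ctss made up 38.2, 40.9 and 32.9% of protease counts in the brain libraries and 41.4% to 55.4% in blood, below the blood range in each brain library. Legumain took 2.61, 3.72 and 6.67% in brain and at most 1.52% in blood. Ctsd took 18.1, 17.5 and 14.7% in brain and 7.0% to 14.8% in blood, where the lowest brain share (14.75%) and the highest blood share (14.84%) met. These shares describe counts and carry no test.

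Between the blood groups a single lysosomal gene passed the unadjusted threshold. In NMO_Bl_mono against Nor_Bl_mono, edgeR passed 0 of the 45 after adjustment, with 1 at an unadjusted p under 0.05, where the background was 0%. Of the 45 and of all tested genes limma-voom also passed 0, while DESeq2 passed 0 of the 45 and 69 of all. At the unadjusted threshold 0 were higher (background 0.465%) and 1 was lower (background 0.247%). The lower gene was Npc2, with 799, 866 and 1342 CPM in normal blood and 649, 677 and 341 in NMO blood. All 3 NMO_Bl_mono libraries lay below all 3 Nor_Bl_mono libraries, and the log2 change was -0.85 (SE 0.36, adjusted p = 1.00 in edgeR). Without NMO_Bl_mono replicate 3 or without Nor_Bl_mono replicate 3 the count of lower genes was 0, and without NMO_Bl_mono replicate 2 it was 4. The median log2 change of the 45 was -0.08 against -0.16 over all tested genes. For Ctsd the change was -0.12 (95% interval -0.90 to 0.66) and for Ctss -0.41 (-1.06 to 0.24). For these well-covered genes the intervals thus leave room for a fall of about 1 on the log2 scale, but not for a rise of that size.

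**Figure D3:**
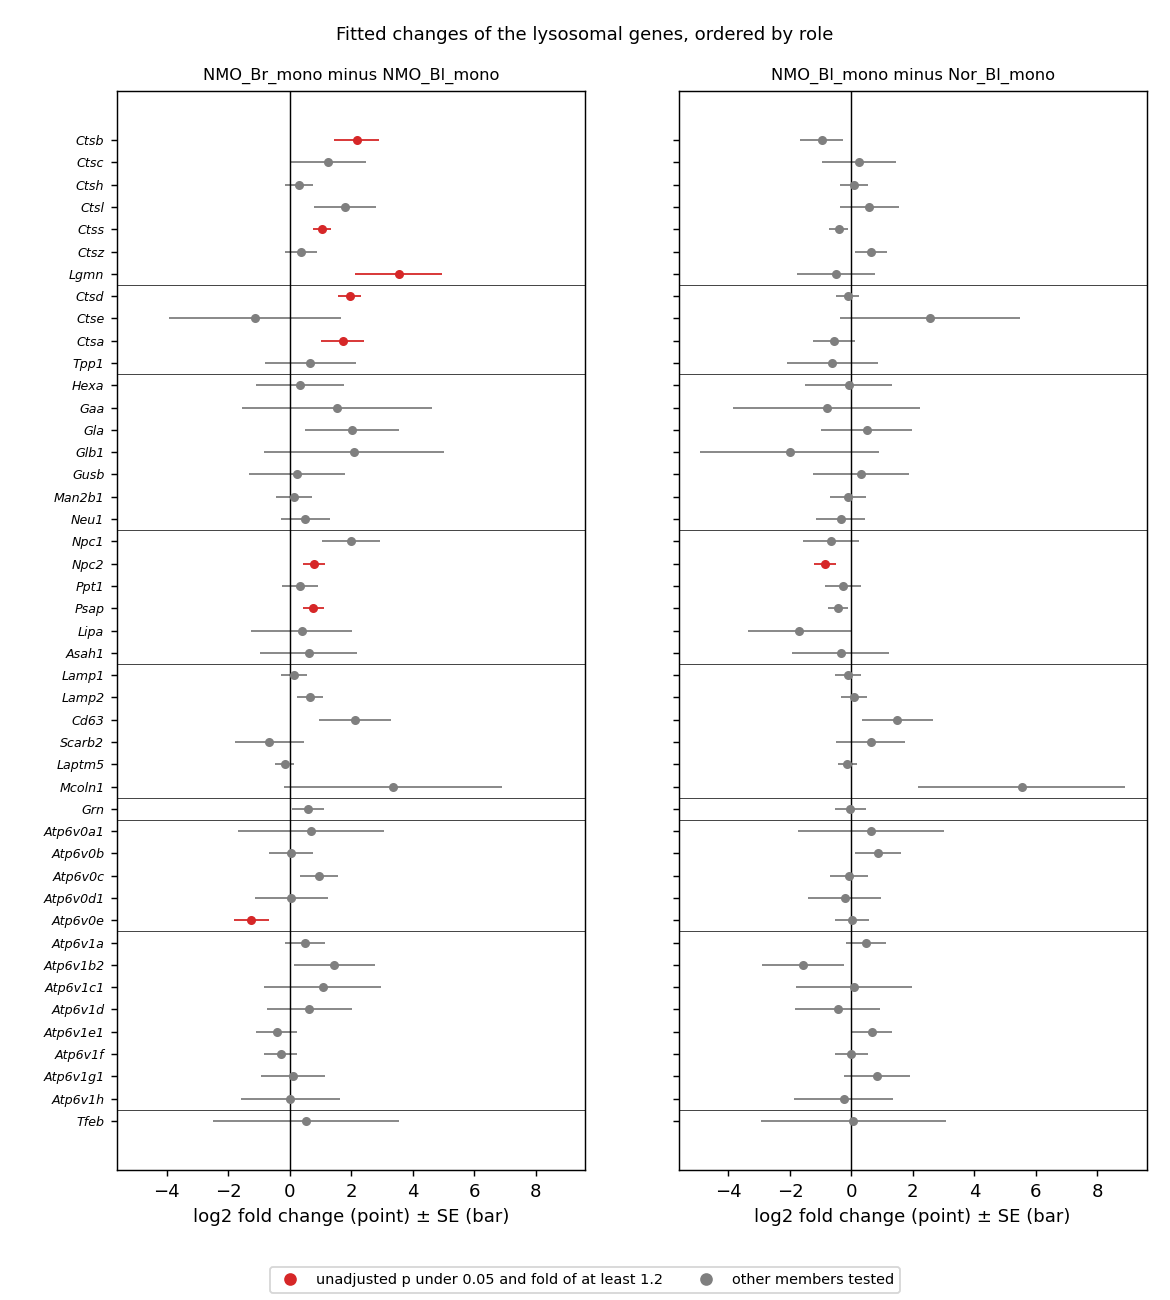
Fitted log2 fold changes (points) with their SE (bars) of the 45 tested lysosomal genes, ordered by role and separated by lines, for NMO_Br_mono minus NMO_Bl_mono (left) and NMO_Bl_mono minus Nor_Bl_mono (right), red where the unadjusted p was under 0.05 with a fold of at least 1.2. On the left 7 genes are red above 0 and Atp6v0e is red below 0, and on the right Npc2 alone is red.

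NMO_Br_mono against Nor_Bl_mono shares its brain libraries with the comparison above. There Ctsd (1.82, SE 0.38), Ctsl (2.39, SE 1.02), Lgmn (3.04, SE 1.38) and Cd63 (3.61, SE 1.25) were higher at the unadjusted threshold of edgeR, 4 of 45 against a background of 1.75%. Atp6v0e (-1.22, SE 0.56) was the 1 lower gene against a background of 4.07%. After adjustment 0 passed in edgeR (background 0.247%), 5 had an unadjusted p under 0.05, DESeq2 passed 2 of the 45 and 366 of all tested genes, and limma-voom passed 1 and 34. Leaving out NMO_Bl_mono replicate 3, which takes no part in this contrast but adds to the common spread, raised the 4 higher genes to 12 and passed 1 after adjustment (62 of all tested genes, against 25 with all libraries), and leaving out Nor_Bl_mono replicate 2 lowered them to 1.

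Against both blood groups together, the comparison with the most libraries, 9 of 45 were higher at the unadjusted threshold (background 2.62%) and 1 was lower (background 4.26%), and after adjustment 1 passed (background 0.435%), which was Ctsd. The 9 were Ctsd, Ctsb, Ctss, Ctsl, Lgmn, Ctsa, Npc1, Cd63 and Mcoln1. Of these, Mcoln1 passed the filter mainly through its brain counts, so its place among the 9 was in part set by the filter. In 10 genes each brain library lay above each of the 6 blood libraries (background 3.57%), and in 1 each lay below (background 3.13%). The 10 were Ctsb, Ctsl, Ctss, Lgmn, Ctsd, Ctsa, Gla, Lamp2, Cd63 and Atp6v0c. The proteases among them had log2 changes of 1.69 (Ctsb, SE 0.58), 0.84 (Ctss, SE 0.26), 3.29 (Lgmn, SE 1.07) and 1.43 (Ctsa, SE 0.57) beside those of Ctsd and Ctsl above. Without NMO_Bl_mono replicate 3 there were 12 higher and 3 after adjustment, and without both libraries that had the most genes at or under 3 counts there were 13 and 3. Over all tested genes the calls after adjustment also rose, from 44 to 90 and 128. The Ctsa call was lost without any single NMO_Br_mono library, and that of Ctsl without NMO_Br_mono replicate 3 or Nor_Bl_mono replicate 2.

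**Figure D4:**
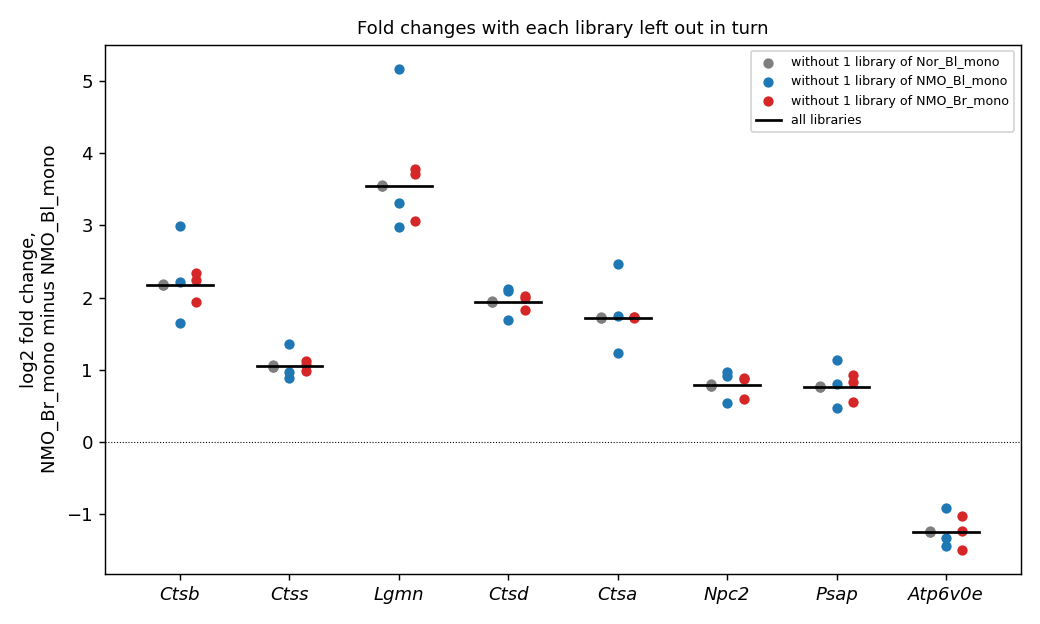
Log2 fold change of the 8 called lysosomal genes in NMO_Br_mono minus NMO_Bl_mono with all libraries (black lines) and with each single library left out (points, colored by the group it was taken from). No point crosses 0, Lgmn ranges from 2.97 to 5.17 and Ctsd from 1.69 to 2.12.

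Genes of the same pathway outside the 46 were read from lists of 120 genes in all. Among 37 other lysosomal hydrolases 32 were tested in NMO_Br_mono against NMO_Bl_mono, of which 1 was higher and 2 were lower at the unadjusted threshold, with a median log2 change of 0.10. Set against 1.48% and 3.84% of all tested genes, these counts are too small to be read as a difference from the background. The higher one was Ifi30, a thiol reductase that opens disulfide bonds for antigen processing, with 258, 521 and 356 CPM in the Nor_Bl_mono libraries, 439.8, 688 and 486 in NMO_Bl_mono and 913, 1224 and 1365 in NMO_Br_mono. Brain lay above blood in each library (log2 change 1.12, SE 0.37, adjusted p = 0.64 in edgeR). The lower ones were Ctsw, a cathepsin of cytotoxic lymphocytes, with 12.3, 0 and 0 CPM in brain against 213, 90.0 and 232 in NMO_Bl_mono, and Hgsnat, an acetyltransferase of heparan sulfate breakdown, at 0 in all brain libraries against 19.5, 31.2 and 3.82. Both passed the filter through their blood counts, so their lower brain level was in part set by the filter.

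Of 26 other membrane and carrier proteins 22 were tested and 2 were higher with 0 lower, against 1.48% and 3.84% of all tested genes. Cd68, a heavily glycosylated protein of macrophage lysosomes, had 101, 165 and 82.0 CPM in the Nor_Bl_mono libraries, 145, 141 and 7.73 in NMO_Bl_mono and 389.8, 413 and 347 in NMO_Br_mono (log2 change 1.97, SE 0.80, adjusted p = 0.80 in edgeR). Gpnmb, a glycoprotein of lysosome-rich macrophages, had 65.8, 62.5 and 194 CPM in brain and at most 4.34 in any blood library, so that it passed the filter through its brain counts and had to differ (adjusted p = 0.80 in edgeR). Of 10 cathepsin inhibitors 3 were tested and 1 was higher, too few to set against the 1.48% of all tested genes. It was Cstb, the cytosolic inhibitor cystatin B, with 80.1, 102 and 282 CPM in the Nor_Bl_mono libraries, 101, 106 and 16.1 in NMO_Bl_mono and 559.6, 633 and 774 in NMO_Br_mono. It lay above the blood range in each brain library (log2 change 3.14, SE 0.71, adjusted p = 0.14 in edgeR), while the secreted inhibitor Cst3 overlapped with 1572, 1542 and 905 in brain and 1005, 842 and 1486 in normal blood.

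Few genes of the routes that deliver or regulate these enzymes were called. The background was 1.48% higher and 3.84% lower, and the counts are too small to be read as a difference from it. Of 19 genes that sort enzymes to the lysosome, such as the mannose 6-phosphate receptors M6pr and Igf2r, 19 were tested, 0 were higher and 2 were lower. The lower ones were Gnptg, a subunit of the enzyme that makes the mannose 6-phosphate tag, with 2.15, 0 and 0 CPM in brain against 18.1, 48.2 and 129, and Ap1g1, a subunit of the adaptor AP-1, with 45.0, 40 and 40.9 against 53.5, 122 and 278. Of 16 genes of the Tfeb family and of nutrient sensing at the lysosome 14 were tested, with 0 higher and 1 lower (Mtor, a kinase of nutrient sensing, named after its values were seen, with at most 0.34 CPM in brain). Gnptg and Mtor passed the filter through their blood counts, so their lower brain level was in part set by the filter. Of 12 other V-ATPase subunits and accessory proteins 4 were tested and 0 passed in either direction.

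Markers of other cell types moved with the comparison of brain and blood, and their part in the differences above was not tested. Summed CPM of 10 microglia markers was 74.1, 71.2 and 31.2 in the Nor_Bl_mono libraries, 41.5, 53.0 and 0 in NMO_Bl_mono and 439, 721 and 502 in NMO_Br_mono, with Fcrls and Olfml3 at 0 in all 6 blood libraries and above 0 in all brain libraries. P2ry12, the marker the sort selected against, had 43.4, 35.0 and 0.92 CPM in the Nor_Bl_mono libraries, 16.7, 0.871 and 0 in NMO_Bl_mono and 23.7, 69.7 and 9.95 in NMO_Br_mono. Microglia are rich in Ctsd, Ctsb, Ctss and Lgmn. Of 8 tested microglia markers 5 were higher at the unadjusted threshold. The sum of 10 neutrophil markers was 299.8, 245 and 83.1 in the Nor_Bl_mono libraries, 294, 296 and 127 in NMO_Bl_mono and 442, 1836 and 1254 in NMO_Br_mono, and 2 of 8 tested were higher and 1 lower. NK cell, platelet and erythroid markers were low in brain. The sum of 9 NK cell markers was 2693, 2352 and 2859 in the Nor_Bl_mono libraries, 2669, 2969 and 3334 in NMO_Bl_mono and 67.2, 347 and 187 in NMO_Br_mono, and 7 of 9 tested were lower, as was Ctsw. That of 8 platelet markers was 3173, 595 and 505 in the Nor_Bl_mono libraries, 2706, 873 and 630.0 in NMO_Bl_mono and 33.2, 39.8 and 0 in NMO_Br_mono, with 6 of 8 lower. That of 7 erythroid markers was 4312, 937 and 1659 in the Nor_Bl_mono libraries, 5419.8, 1641 and 2079.8 in NMO_Bl_mono and 402, 1.05 and 58.5 in NMO_Br_mono, with 4 of 6 tested lower. The 8 markers of border-associated macrophages, which include the platelet gene Pf4, summed to 428, 183 and 108 in the Nor_Bl_mono libraries, 562, 310.3 and 126 in NMO_Bl_mono and 85.8, 232 and 70.1 in NMO_Br_mono, with Folr2 at 0 in all 9 libraries and Siglec1 at 0 in brain. Of 5 tested, 4 had log2 changes above 0 against NMO_Bl_mono, with a median of 2.87. In 2 each brain library lay above each NMO_Bl_mono library, while 0 were higher and 1 was lower at the unadjusted threshold. Against both blood groups 1 was higher and 1 was lower. Dendritic cell markers (6 genes) summed to 139, 172 and 146 in the Nor_Bl_mono libraries, 147, 84.6 and 9.64 in NMO_Bl_mono and 123, 368 and 142 in NMO_Br_mono. B cell markers (5 genes) summed to 77.1, 1.16 and 13.1 in the Nor_Bl_mono libraries, 72.7, 35.2 and 0 in NMO_Bl_mono and 10.5, 37.8 and 0 in NMO_Br_mono. Neural markers (8 genes) summed to 37.1, 9.62 and 0 in the Nor_Bl_mono libraries, 14.1, 39.7 and 45.7 in NMO_Bl_mono and 65.9, 0 and 36.1 in NMO_Br_mono, and these 3 sums overlapped between brain and blood. T cell markers (6 genes) summed to 129.9, 148 and 47.3 in the Nor_Bl_mono libraries, 94.7, 59.0 and 31.9 in NMO_Bl_mono and 11.8, 0 and 23.0 in NMO_Br_mono, lowest in brain.

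Monocyte genes were present in all 9 libraries. The summed CPM of 11 monocyte markers was 6343, 8347 and 7237 in the Nor_Bl_mono libraries, 6728, 7813 and 4256 in NMO_Bl_mono and 7881, 3780.3 and 5546 in NMO_Br_mono, and Ly6c2, which encodes part of the Ly6C antigen used in the sort, had 923, 933 and 462 CPM in the Nor_Bl_mono libraries, 662, 739 and 496 in NMO_Bl_mono and 437, 59.4 and 199 in NMO_Br_mono. It was lowest in the brain libraries. Of the 11 markers 0 were higher and 2 lower in NMO_Br_mono than in NMO_Bl_mono at the unadjusted threshold, with a median log2 change of -0.26, and 1 was higher and 3 were lower than in Nor_Bl_mono. Per count of these monocyte markers, protease counts were 0.403, 0.421 and 0.574 in the Nor_Bl_mono libraries, 0.4, 0.51 and 0.394 in NMO_Bl_mono. They were 0.935, 1.68 and 1.29 in NMO_Br_mono, with no overlap between brain and blood. The highest ratio was in NMO_Br_mono replicate 2, which also had the lowest marker sum, so its height comes in part from the divisor. Pump counts per monocyte marker count were 0.207, 0.152 and 0.224, 0.258, 0.185 and 0.278, and 0.281, 0.325 and 0.259, with the lowest brain value below the highest of NMO_Bl_mono.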

How the data were processed

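The series held 9 QuantSeq libraries of sorted mouse monocytes in 3 groups of 3, assigned by their labels. Reads were aligned by the authors with Bowtie2 (build mm10 in the submitters' processing notes), and bedtools coverage, which took both unique and multiple alignments, gave the raw counts they deposited by gene symbol. Versions and the annotation are not given in the sources used here. Of 23282 entries a file, 35 symbols were repeated, and each kept its entry with most counts.

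Counts were tested with edgeR 4.0.16 (glmQLFit, TMM, filterByExpr, all 9 libraries fitted together), adjusting by Benjamini-Hochberg over 10107 genes. The fit had a common dispersion of 2.87. The thresholds were an adjusted p under 0.05 and, as in the study, an unadjusted p under 0.05 with a fold of 1.2. Unadjusted p-values are not printed. Members, lists, comparisons and the naming rule were chosen with earlier results of these data known. Genes are given with statistics where they passed the unadjusted threshold, or where the groups did not overlap and the higher mean was at least 50 CPM. This rule was applied to NMO_Br_mono against NMO_Bl_mono, NMO_Bl_mono against Nor_Bl_mono and NMO_Br_mono against both blood groups. It was not applied to NMO_Br_mono against Nor_Bl_mono. Pathway genes are named up to 8 by smallest p under 0.05. DESeq2 1.42.0, limma 3.58.1 voom and other settings were alternatives in R 4.3.3. The tests were also tried on simulated data, but with dispersions smaller than the 2.87 fitted here. That trial therefore does not show how they perform at the spread of these libraries. Positions are from GENCODE M21 (GRCm38) and promoters from RefSeq (GRCm38.p6). P-values measure the spread between pools of 5 mice.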

Additional observations from a re-analysis of the deposited data

How the results depend on the processing

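There were 21 settings in all, of which a fold of 1.5 was applied to the counts of called genes only. The 16 genes given with statistics were run in 20 alternatives against NMO_Bl_mono and 19 against both blood groups. None reversed direction, which was largely given in advance, since they were picked from these same data. Of their values 532 kept their side of the threshold, 64 lost and 28 gained it. Each median log2 change stayed within the spread between replicates (0.44). Of the 45 genes 39 were above 0 in NMO_Br_mono against NMO_Bl_mono, but 29 with limma-voom, where the median of all tested genes was -0.67, and 30 without NMO_Br_mono replicate 1. For NMO_Br_mono against NMO_Bl_mono (0 called after adjustment) the count was 1 with RLE factors, library sizes alone, no Rn45s, a mean of 10 counts, or DESeq2, 4 with no filter, 3 with limma-voom and 0 to 1 with a library left out. There 13 were higher with limma-voom, and 0 lower with no filter, a mean of 10 counts, only the groups compared, or without NMO_Bl_mono replicate 3 and NMO_Br_mono replicate 2 together (chosen after seeing the data), and 0 to 1 with a library left out. For NMO_Bl_mono against Nor_Bl_mono, 2 were lower with no filter, 0 with DESeq2 or without both libraries, where 1 was higher, and 0 to 4 with a library left out. For NMO_Br_mono against Nor_Bl_mono, 1 was called with RLE factors, library sizes alone, no filter, limma-voom, only the groups compared or without both libraries, 2 with DESeq2 and 0 to 1 with a library left out. There 15 were higher with limma-voom, 10 with only the groups compared, 12 without both libraries and 1 to 12 with a library left out. Lower were 0 with RLE factors, library sizes alone, no filter, a mean of 10 counts or DESeq2, 2 with limma-voom and 0 to 1 with a library left out. Against both blood groups, 4 were called with no filter, 3 with DESeq2, 6 with limma-voom, 3 without both libraries and 1 to 3 with a library left out, 15 were higher with limma-voom, and 0 lower with no filter, 2 with limma-voom and 0 to 1 with a library left out. Over all tested genes the calls after adjustment in NMO_Br_mono against NMO_Bl_mono were 25 in the edgeR fit above, 110 with no filter, 336 with DESeq2 and 51 with limma-voom. In NMO_Br_mono against Nor_Bl_mono they were 25, 115, 366 and 34, and against both blood groups 44, 181, 495 and 122. Without both libraries they were 61, 107 and 128 in these comparisons. Higher and lower genes over all tested genes were counted in the edgeR fit above only. The causes of these changes were not tested.

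Whether the replicate numbers pair the libraries could not be settled, since all correlations were small. Deviations of same-numbered libraries correlated at 0.058, -0.010 and 0.013 between NMO_Br_mono and NMO_Bl_mono, and of differently numbered ones at -0.052 to 0.030. Between NMO_Bl_mono and Nor_Bl_mono these were 0.116, 0.015 and 0.069 against -0.096 to 0.005. Between NMO_Br_mono and Nor_Bl_mono they were 0.034, 0.0003 and -0.001 against -0.020 to 0.015. With the replicate block, 1 of the 45 genes was called in NMO_Br_mono against NMO_Bl_mono (22 of all tested genes), with 7 higher and 0 lower. In NMO_Br_mono against Nor_Bl_mono 0 were lower. Against both blood groups 1 was called (34 of all tested genes), with 7 higher and 0 lower. Several pump subunits and glycosidases had SEs above 1 on the log2 scale.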
